A study of Homo sapiens with 12 samples.

Results

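Messenger RNA of 9 genes that decide where a germinal-centre B cell stays or goes was measured in the lymphoma line SU-DHL-4 after inhibition of SYK, of BET proteins or of both. The 9 genes were chosen by their roles in follicular positioning: the chemokine receptors CXCR4, CXCR5 and CCR7, the sphingosine-1-phosphate receptors S1PR1, S1PR2 and S1PR4, the confinement receptor P2RY8, the G protein subunit GNA13 and the transcription factor KLF2. They are 9 of the 46863 genes in the count table. A filter on low counts kept 16835 genes for testing, 7 of the 9 among them, and left out CCR7 and KLF2.

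In a lymphoid follicle, B cells are drawn in by CXCR5, which follows CXCL13, while CXCR4 follows CXCL12 to the dark zone of the germinal centre and CCR7 leads towards the T-cell zone. S1PR2 and P2RY8 hold germinal-centre B cells in place through the G protein subunit encoded by GNA13, and loss of this pathway is a known feature of germinal-centre lymphomas. S1PR1 works the other way: it guides cells out to blood and lymph, and its transcription depends on KLF2.

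The study asked how a SYK inhibitor and a BET inhibitor change gene expression alone and together. SU-DHL-4 is an established human line of diffuse large B-cell lymphoma (DLBCL) of the germinal-centre B-cell type. Its cells were grown for 72 h with the solvent DMSO, with 1 µM entospletinib (Ento, an inhibitor of the B-cell receptor kinase SYK), with 0.01 µM AZD5153 (AZD, a bivalent BET inhibitor) or with both agents (Ento+AZD), in 3 libraries each. All groups are the same unmodified line in the same serum-containing medium, at 1 dose and 1 time point, so that the data describe 1 line in culture.

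The 12 libraries held 18121993 to 24675830 counts, and 1 count was worth 0.0393 to 0.0564 CPM (counts per 1000000 counts of a library, scaled by TMM). Of the markers checked, 6 of 6 B-cell and 6 of 6 germinal-centre markers, S1PR2 itself among the latter, were over 1 CPM in every group. Of 6 plasma-cell markers, JCHAIN, TNFRSF17 and XBP1 were over 1 CPM in every group, while SDC1, PRDM1 and IRF4 were under 1 CPM. JCHAIN had group means of 711 to 831 CPM. XBP1 was raised by each exposure (log2 1.33, 1.14 and 1.70, edgeR adjusted p 2.42e-04, 5.20e-04 and 6.69e-06). TNFRSF17 had means of 15.1 CPM with DMSO, 16.0 with Ento, 10.7 with AZD and 9.89 with Ento+AZD. Of the 3 tested plasma-cell markers, 1 was called higher with each exposure, and 1 was called lower with AZD and with Ento+AZD. The 6 plasma-cell markers summed to 588 to 859 CPM with DMSO, 738 to 949 with Ento, 630.3 to 905 with AZD and 664 to 839.9 with Ento+AZD. Of the T-cell markers, CD3D and CD2 were at 0 in all libraries, but TRAC, CD3E and LCK were detected. The summed level of the 6 T-cell markers was 94.7 to 131 CPM with DMSO, 116 to 195 with Ento, 78.3 to 108 with AZD and 63.4 to 91.2 with Ento+AZD. Of the 3 tested T-cell markers, 1 was called higher with Ento, 3 lower with AZD and 2 lower with Ento+AZD. TRAC had means of 4.39 CPM with DMSO, 4.28 with Ento, 2.06 with AZD and 1.19 with Ento+AZD. Myeloid markers summed to at most 0.904 CPM, and of the 6 stromal and endothelial markers only PECAM1 passed 1 CPM, with means of 33.9 CPM with DMSO, 60.4 with Ento, 27.8 with AZD and 59.3 with Ento+AZD (log2 0.84, -0.39 and 0.81 against DMSO, edgeR adjusted p 0.0111, 0.138 and 0.00261). The part of these markers in the results below was not tested.

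Levels of the 9 genes per kb of exon spanned several orders of magnitude in DMSO. P2RY8 was highest, with 75.2, 74.0 and 65.6 CPM per kb in the 3 libraries, followed by GNA13 with 59.4, 60.4 and 73.1, and these neighbours overlapped. S1PR2 had 50.1, 57.1 and 51.8 CPM per kb, below every GNA13 library. CXCR5 with 22, 19.9 and 17.7 and CXCR4 with 23.5, 14.8 and 20.9 CPM per kb came next and could not be ordered. The remaining genes were low, from S1PR4 with 0.860, 0.606 and 0.331 CPM per kb, through CCR7 with 0.222, 0.0913 and 0.172, to S1PR1 with 0.0609, 0.0351 and 0.0602 and KLF2 with 0.0423, 0.0325 and 0.0139. S1PR4 and CCR7 did not overlap, and neither did CCR7 and S1PR1, whereas S1PR1 and KLF2 did. The confinement pathway (P2RY8, GNA13, S1PR2) was thus abundant, and the egress receptor S1PR1 and its regulator KLF2 were near the detection limit.

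**Figure D1:**
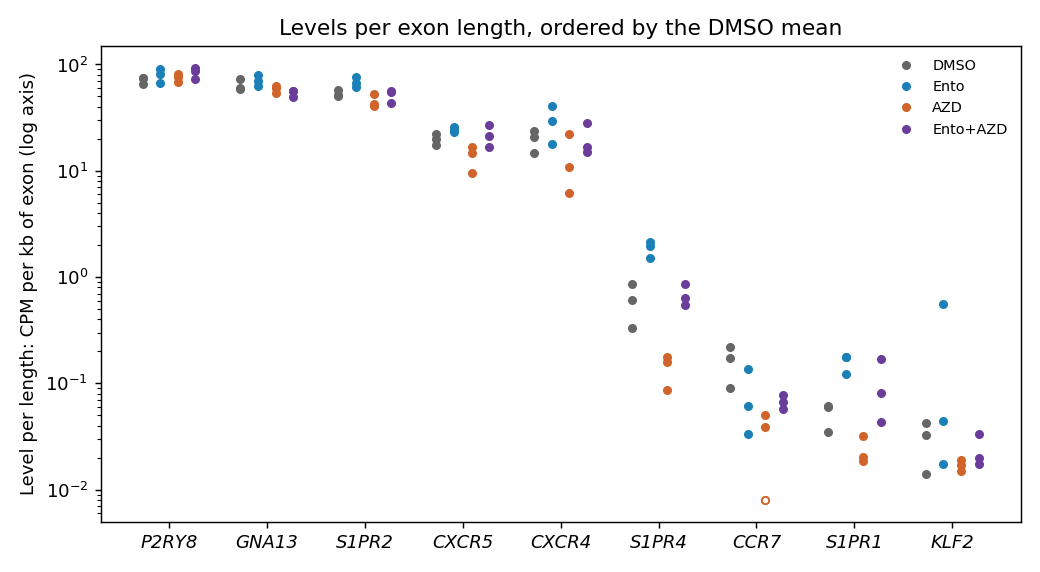
Level of the 9 genes per kb of exon (TMM-scaled CPM per kb, log axis) in the 12 libraries, 1 point each, coloured by exposure and ordered by the DMSO mean. P2RY8 and GNA13 had the highest mean level under all exposures, with S1PR2 above GNA13 in replicate 2 of Ento (76.7 against 62.9 CPM per kb) and of Ento+AZD (55.9 against 49.8), S1PR4 spread most between exposures among the tested genes, and CCR7 in AZD replicate 2, which had 0 counts, is drawn as an open symbol at the foot of the axis.

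S1PR4, a sphingosine-1-phosphate receptor of lymphoid and myeloid cells (chr19:3172346-3180332, + strand, GRCh38), had the widest range of responses. Its level was 1.43, 1.01 and 0.550 CPM in the DMSO libraries, replicates 1 to 3, and 3.53, 2.51 and 3.24 CPM with Ento. With AZD it was 0.295, 0.267 and 0.145 CPM, from 7, 5 and 3 counts, and with Ento+AZD 1.42, 1.05 and 0.903 CPM. All Ento libraries lay above and all AZD libraries below every DMSO library, whereas Ento+AZD overlapped DMSO. Ento raised S1PR4 by 1.66 ± 0.24 on the log2 scale (SE), 3.17-fold (edgeR adjusted p = 9.77e-04), and AZD lowered it to 0.243 of the DMSO level, a log2 change of -2.04 ± 0.37 (edgeR adjusted p = 0.00238). Between the single agents the difference was 13-fold (log2 3.71 ± 0.32, edgeR adjusted p = 5.41e-06), with ratios of 12, 9.39 and 22.3 within the replicate numbers. In bulk RNA, less RNA per cell and fewer cells that express the gene cannot be told apart. S1PR4 passed the test in these comparisons whichever of the 12 libraries was left out. The model holds the replicate number as a term, as the study's did. Without that term the Ento change had an edgeR adjusted p of 0.0582 and the AZD change 0.0355.

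S1PR1, the egress receptor (chr1:101236865-101243713, + strand), differed in the same directions at a far lower level. It was counted 8, 4 and 8 times with DMSO, 22, 18 and 13 times with Ento, 4, 2 and 2 times with AZD and 18, 9 and 4 times with Ento+AZD. In CPM these are 0.318, 0.183 and 0.314 with DMSO, 0.925, 0.921 and 0.639 with Ento, 0.169, 0.107 and 0.0968 with AZD, and 0.880, 0.429 and 0.226 with Ento+AZD. Ento lay above and AZD below DMSO without overlap, and the Ento+AZD libraries were spread from the DMSO range to the Ento range. S1PR1 entered the test only because its 3 Ento libraries were over the filter, so that its difference between Ento and DMSO is not independent of that filter. With that limit, Ento raised S1PR1 2.95-fold (log2 1.56 ± 0.38, edgeR adjusted p = 0.0209), a call lost without the replicate term (0.189) and without any 1 of DMSO replicates 1 and 2 or Ento replicates 1, 2 and 3 (edgeR adjusted p 0.0534 to 0.128). The AZD difference of -1.12 (95% interval -2.30 to 0.06) did not pass (edgeR adjusted p = 0.161).

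S1PR2, the confinement receptor that defines germinal-centre B cells (chr19:10221433-10231331, − strand), was abundant and changed little. Its level was 182, 208 and 189 CPM with DMSO and 246, 279 and 222 CPM with Ento. It was 156, 191 and 147 CPM with AZD and 199, 204 and 159 CPM with Ento+AZD. Every Ento library was above every DMSO library, while AZD and Ento+AZD overlapped DMSO. Ento raised S1PR2 1.29-fold (log2 0.36 ± 0.08, edgeR adjusted p = 0.0113), and without Ento replicate 1 or 2 the adjusted p was 0.0607 or 0.0684. AZD lowered it to 0.847 of DMSO (log2 -0.24 ± 0.08, edgeR adjusted p = 0.0391), a call at the edge of the threshold, which 7 of the 12 fits with 1 library left out did not make: those without AZD replicate 1, 2 or 3, Ento replicate 1, 2 or 3 or DMSO replicate 3 (edgeR adjusted p 0.0516 to 0.162). With the compared groups alone its edgeR adjusted p was 0.104. Without the replicate term neither call was made (0.298 and 0.336). By annotation S1PR2 shares 83 exon bases with DNMT1 on the same strand.

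**Figure D2:**
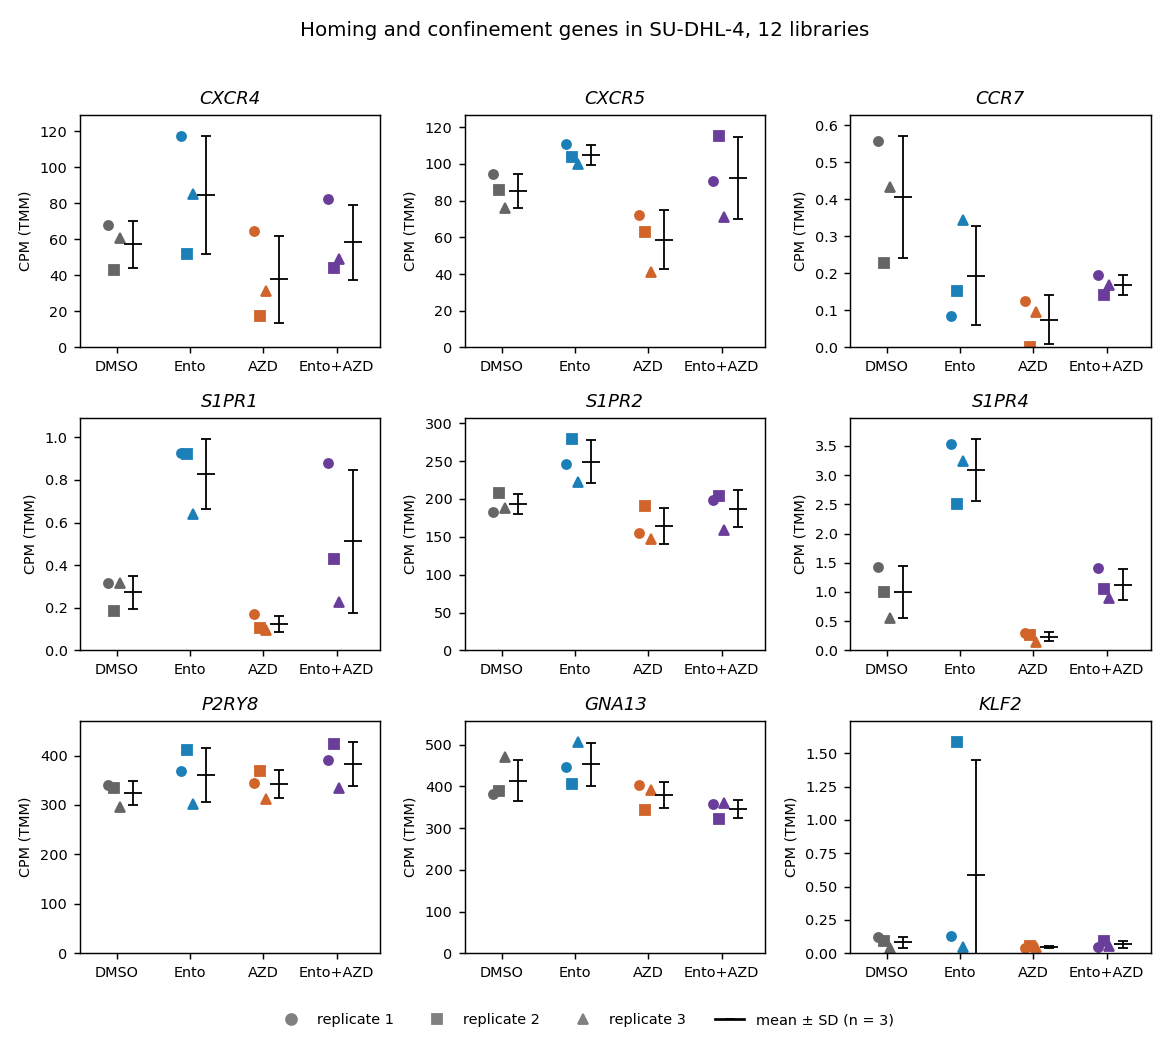
TMM-scaled CPM (linear axis from 0, own scale per gene) of the 9 genes in DMSO, Ento, AZD and Ento+AZD, with 1 symbol per library (circle, square and triangle for replicates 1, 2 and 3) and the mean ± SD of 3 libraries as bars. S1PR4 and S1PR1 stood above DMSO in all Ento libraries and below it in all AZD libraries, P2RY8 and GNA13 varied least between groups, and KLF2 had 1 Ento library far above the rest. The lower SD bar of KLF2 in Ento runs below 0 and is not shown beyond the axis.

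CXCR4, the dark-zone receptor (chr2:136114349-136119177, − strand), varied with the replicate number as well as with the exposure. Its level was 68.2, 42.9 and 60.7 CPM with DMSO, 117, 51.7 and 85.1 with Ento, 64.8, 17.7 and 31.3 with AZD, and 82.5, 44 and 49.0 with Ento+AZD. The groups overlapped in all 6 pairwise comparisons, since replicate 1 was high and replicate 2 low in every group, but within each replicate number Ento was above DMSO (ratios 1.72, 1.2 and 1.40) and AZD below it (0.950, 0.413 and 0.515). AZD lowered CXCR4 to 0.604 of DMSO (log2 -0.73 ± 0.17, edgeR adjusted p = 0.00808). This call was lost without AZD replicate 2 or 3 (edgeR adjusted p 0.0525 and 0.0596) and without the replicate term (0.451). With Ento the log2 difference of 0.51 ± 0.16 (95% interval 0.16 to 0.85) did not pass (edgeR adjusted p = 0.0704), but DESeq2 (0.0257), limma voom (0.0485) and edgeR on the DMSO and Ento libraries alone (0.00666) or without AZD replicate 1 or 2 (0.0156 and 0.0441) called it.

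CXCR5, the follicle-homing receptor (chr11:118883892-118897787, + strand), had 94.5, 85.6 and 75.8 CPM with DMSO, 111, 104 and 100.0 with Ento, 72.4, 62.7 and 41.0 with AZD and 90.8, 115 and 71.1 with Ento+AZD. Ento lay above and AZD below DMSO without overlap, and Ento+AZD spanned the DMSO range. AZD lowered CXCR5 to 0.677 of DMSO (log2 -0.56 ± 0.13, edgeR adjusted p = 0.00695), with an adjusted p of 0.0666 without AZD replicate 3 and 0.164 without the replicate term. The Ento difference of 0.31 (95% interval 0.04 to 0.57) did not pass (edgeR adjusted p = 0.143). Of the 4293 exon bases of CXCR5, 3913 (91.1%) lie within exons of BCL9L on the opposite strand, and whether counting used the strand is not stated, so reads of the 2 genes may not be told apart. BCL9L itself was counted at means of 32.1 to 34.5 CPM in the 4 groups, with log2 differences from DMSO of -0.08, -0.10 and -0.09 for Ento, AZD and Ento+AZD (edgeR adjusted p 0.669, 0.502 and 0.512).

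The 4 members that AZD lowered were S1PR4, S1PR2, CXCR4 and CXCR5, and the 250 bases before a RefSeq transcript start of each (GRCh38.p14) are printed for that reason. Capitals mark matches, on either strand, to CACCC, the core of the motif that KLF factors read (its reverse complement is marked as well), and to TGACGTCA, the palindromic cyclic-AMP response element.
S1PR4 promoter, chr19:3178519-3178768, + strand: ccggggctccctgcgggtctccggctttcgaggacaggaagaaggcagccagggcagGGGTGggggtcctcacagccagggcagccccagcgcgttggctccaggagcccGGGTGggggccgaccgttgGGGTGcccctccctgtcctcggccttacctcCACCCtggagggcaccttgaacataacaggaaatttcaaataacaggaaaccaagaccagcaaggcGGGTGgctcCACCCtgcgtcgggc
S1PR2 promoter, chr19:10231332-10231581, − strand: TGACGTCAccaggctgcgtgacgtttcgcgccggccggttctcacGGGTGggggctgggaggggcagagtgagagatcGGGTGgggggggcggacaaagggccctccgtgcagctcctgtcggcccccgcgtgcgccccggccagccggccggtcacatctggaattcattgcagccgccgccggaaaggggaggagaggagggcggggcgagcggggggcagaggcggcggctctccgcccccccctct
CXCR4 promoter, chr2:136118150-136118399, − strand: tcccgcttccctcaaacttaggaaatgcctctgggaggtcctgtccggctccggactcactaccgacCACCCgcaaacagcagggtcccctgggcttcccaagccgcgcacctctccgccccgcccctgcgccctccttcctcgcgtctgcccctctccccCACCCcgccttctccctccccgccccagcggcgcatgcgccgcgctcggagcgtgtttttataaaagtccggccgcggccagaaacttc
CXCR5 promoter, chr11:118893142-118893391, + strand: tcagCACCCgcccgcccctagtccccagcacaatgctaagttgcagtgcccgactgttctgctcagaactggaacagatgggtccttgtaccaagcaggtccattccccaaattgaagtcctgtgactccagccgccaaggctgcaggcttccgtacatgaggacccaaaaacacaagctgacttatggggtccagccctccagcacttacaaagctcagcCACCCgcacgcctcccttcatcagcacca
The S1PR4 window held 6 matches to CACCC, those of S1PR2, CXCR4 and CXCR5 held 2 each, and the S1PR2 window began with TGACGTCA. Over 35116 promoter windows of this length, 54.7% held at least 1 CACCC and 1.65% a TGACGTCA, so the first is a common string. GTAAACA for FOXO factors (2.98% of windows), TGANTCA for AP-1 (6.57%), ATTTGCAT for octamer factors (1.63%) and CACGTG for E-box factors (6.34%) were searched too and had no match in the 12 windows of the 8 members found in the table. CXCR4 has 3 such windows, of which the one with the start farthest upstream is shown, and CCR7 has none. In GENCODE v44, 190 of the 250 bases of the S1PR4 window lie in exons of another, unnamed gene. By the GENCODE coordinates given above, the S1PR4, CXCR4 and CXCR5 windows lie inside the gene, downstream of its annotated start. They precede the start of a RefSeq transcript, not of the whole annotated gene. The S1PR2 window lies directly upstream of the annotated gene. These matches describe the letters and no binding was measured.

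CCR7, the receptor for the T-cell zone (chr17:40553769-40565472, − strand), was counted too rarely to be tested. Its counts were 14, 5 and 11 with DMSO, 2, 3 and 7 with Ento, 3, 0 and 2 with AZD, and 4, 3 and 3 with Ento+AZD. DMSO held the most, with an overlap with Ento (5 against 7 counts) and none with AZD or Ento+AZD. Summed over the libraries and scaled, the ratio to DMSO was 0.455 with Ento (exact Poisson 95% interval 0.212 to 0.915), 0.191 with AZD (0.0580 to 0.498) and 0.408 with Ento+AZD (0.178 to 0.858). These intervals cover counting error only, not the spread between cultures, and reads that are copies of 1 molecule were not marked.

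KLF2, the zinc-finger factor that drives S1PR1 transcription (chr19:16324826-16328685, + strand), was at the floor in 11 of 12 libraries. Its counts were 3, 2 and 1 with DMSO, 3, 31 and 1 with Ento, 1, 1 and 1 with AZD and 1, 2 and 1 with Ento+AZD. Ento replicate 2 alone held 31 counts, against a total of 17 over the other 11 libraries. In the same library S1PR1 was at 18 counts (0.921 CPM), against 22 and 13 (0.925 and 0.639 CPM) in the other Ento libraries. Its ratio to the DMSO library of the same number was 5.03, against 2.91 and 2.03. DMSO replicate 2 held 4 S1PR1 counts, against 8 and 8 in DMSO replicates 1 and 3. KLF2 was not tested, and a level per group would rest on Ento replicate 2. A link between KLF2 and S1PR1 was not tested.

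P2RY8, a receptor that holds germinal-centre B cells in the follicle through GNA13 (chrX:1462581-1537185, − strand, in the pseudoautosomal region), had the smallest span of log2 changes of the tested members (0.23). Its level was 341, 335 and 297 CPM with DMSO, 368, 412 and 303 with Ento, 345, 370 and 313 with AZD and 391, 423 and 334 with Ento+AZD. The groups overlapped in every comparison. Single agents gave log2 differences of 0.15 (95% interval -0.00 to 0.30) and 0.08 (-0.07 to 0.23) from DMSO, and neither passed (edgeR adjusted p 0.214 and 0.458). With Ento+AZD P2RY8 was 1.18-fold higher (log2 0.23 ± 0.07, edgeR adjusted p = 0.0158), with adjusted p 0.05002 to 0.0812 without DMSO replicate 2 or Ento+AZD replicate 1 or 3, 0.0964 with the compared groups alone and 0.199 without the replicate term. P2RY8 has identical copies on the X and Y chromosomes, and how reads of such copies were assigned is not stated.

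GNA13, the G protein alpha subunit through which S1PR2 and P2RY8 signal (chr17:65009289-65056740, − strand), had 382, 388 and 470.1 CPM with DMSO, 447, 405 and 507 with Ento, 404, 343 and 390.4 with AZD, and 358, 320.4 and 359 with Ento+AZD. All Ento+AZD libraries were below all DMSO and all Ento libraries, while each single agent overlapped DMSO. The log2 difference from DMSO was 0.13 (95% interval -0.03 to 0.29, edgeR adjusted p = 0.313) with Ento and -0.12 (-0.29 to 0.04, edgeR adjusted p = 0.267) with AZD. With Ento+AZD GNA13 fell to 0.839 of DMSO (log2 -0.25 ± 0.08, edgeR adjusted p = 0.0163) and to 0.766 of Ento (log2 -0.38 ± 0.08, edgeR adjusted p = 0.00339). The first of these was not called without DMSO replicate 2 or 3 or Ento+AZD replicate 3 (edgeR adjusted p 0.0541 to 0.0966) or with the compared groups alone (0.0762), and without the replicate term the values were 0.135 and 0.114. With both agents P2RY8 and GNA13 thus differed from DMSO by at most 0.25 on the log2 scale, in calls that the named settings end.

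Counted over the members, Ento raised 3 of the 7 tested genes (S1PR4, S1PR2 and S1PR1) and lowered 0, where S1PR1 was tested only because of its Ento libraries and is no support for a direction. At the same threshold 8.32% of all tested genes were called with Ento. Those called higher were 4.66% and those called lower 3.66% of all tested genes. AZD lowered 4 of 7 (S1PR4, CXCR5, CXCR4 and S1PR2) and raised 0, where 22.2% of all tested genes were called and 12.7% were lower. Ento+AZD called 2 of 7, P2RY8 as higher and GNA13 as lower, where 40% of all tested genes were called (19.2% higher and 20.8% lower). Calls over 2-fold numbered 2 with Ento (S1PR4 and, with the same limit, S1PR1), 1 with AZD and 0 with Ento+AZD, against 1.63%, 3.19% and 8.32% of all genes. The 3 libraries of the 2 groups did not overlap for 4 of the 7 tested members with Ento, 3 with AZD and 1 with Ento+AZD, against 15.1%, 24.4% and 39.2% of all tested genes. S1PR1 is among these members with Ento and with AZD. Tested only through its Ento libraries, it adds no support to these counts. Without the replicate term these comparisons called 0, 1 and 0 members. The 3 comparisons share the DMSO libraries.

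**Figure D3:**
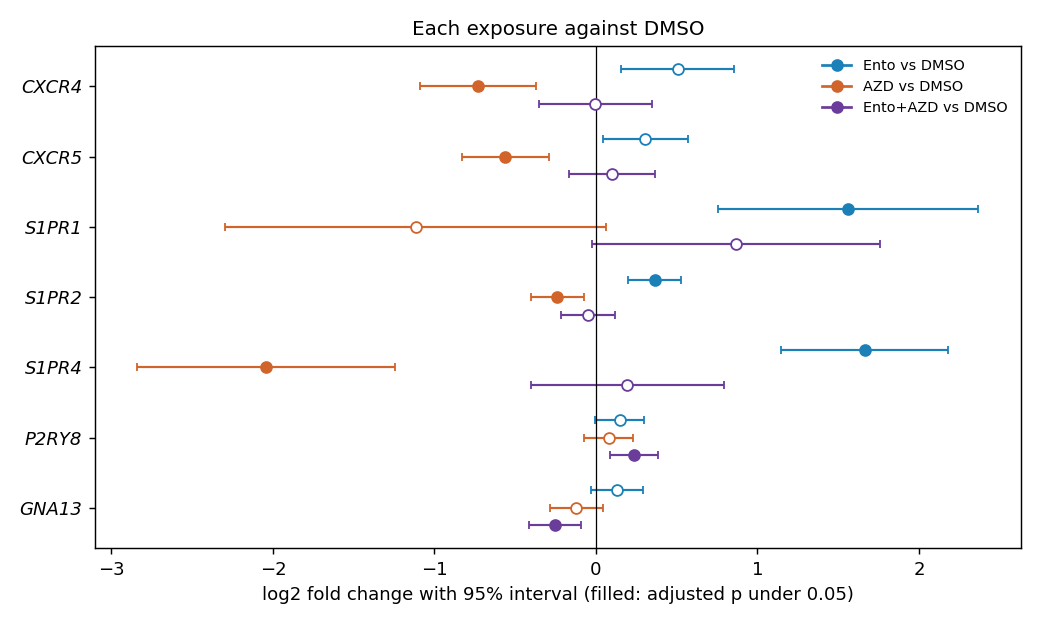
Log2 fold change of the 7 tested members against DMSO with its 95% interval, for Ento, AZD and Ento+AZD. Filled symbols have an edgeR adjusted p under 0.05. For S1PR4, S1PR2, CXCR4 and CXCR5 the Ento value was positive and the AZD value negative with intervals apart from 0, and the interval of Ento+AZD contained 0.

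With both agents the mean levels of S1PR4, S1PR1, S1PR2, CXCR4 and CXCR5 lay between those of the single agents. Ento+AZD differed from DMSO by 0.19 for S1PR4 (95% interval -0.40 to 0.79), 0.87 for S1PR1 (-0.02 to 1.76), -0.05 for S1PR2 (-0.21 to 0.12), -0.00 for CXCR4 (-0.35 to 0.35) and 0.10 for CXCR5 (-0.16 to 0.37) on the log2 scale. None of these 5 passed (edgeR adjusted p 0.112 to 0.989), and the intervals of S1PR4 and S1PR1 still hold differences of up to 0.79 and 1.76. Each of the 5 did differ from at least 1 of the single agents. Against Ento, adding AZD lowered S1PR4 to 0.361 (log2 -1.47 ± 0.24, edgeR adjusted p = 0.00119), S1PR2 to 0.752 (log2 -0.41 ± 0.08, edgeR adjusted p = 0.00239) and CXCR4 to 0.703 (log2 -0.51 ± 0.16, edgeR adjusted p = 0.0403). With GNA13 these were 4 of 7 members, all lower, where 20.4% of all tested genes were called and 12.2% were lower, and 1 of them (S1PR4) changed over 2-fold, as did 3.35% of all genes. The groups did not overlap for 3 of the 7 tested members, against 23.2% of all tested genes.

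Against AZD, adding Ento raised 4 of 7 members, where 11.9% of all tested genes were called and 5.85% were higher, and 2 changed over 2-fold, as did 1.68% of all genes. The groups did not overlap for 2 of the 7 tested members, against 17.1% of all tested genes. S1PR4 was 4.71-fold higher (log2 2.24 ± 0.38, edgeR adjusted p = 0.00324) and S1PR1 3.96-fold (log2 1.99 ± 0.50, edgeR adjusted p = 0.0220). S1PR1 was tested only because its Ento libraries passed the filter, which 0 AZD and 1 Ento+AZD library did. It adds no support to the counts of raised members, of changes over 2-fold and of members without overlap. CXCR4 was 1.65-fold higher (log2 0.72 ± 0.17, edgeR adjusted p = 0.0148) and CXCR5 1.58-fold (log2 0.66 ± 0.13, edgeR adjusted p = 0.00591). Between the single agents 6 of 7 members were higher with Ento, all but P2RY8, where 14.7% of all tested genes were called and 8.99% were higher. The groups did not overlap for 5 of the 7 tested members (21.5% of all tested genes), and 3 members differed over 2-fold (3.21% of all genes). S1PR1, again tested only through its Ento libraries, was 6.40-fold higher (edgeR adjusted p = 0.00127) and adds no support to these counts. After S1PR4 came CXCR4 (2.35-fold, 2.04e-04), CXCR5 (1.83-fold, 3.56e-04), S1PR2 (1.52-fold, 1.36e-04) and GNA13 (1.19-fold, 0.0383). P2RY8 differed by 0.07 on the log2 scale (95% interval -0.08 to 0.22).

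These calls differed in how firmly they held. The CXCR4 difference between Ento+AZD and Ento was lost without Ento replicate 1, 2 or 3, Ento+AZD replicate 1 or 3 or AZD replicate 3 (edgeR adjusted p 0.0505 to 0.185), and that of CXCR5 was gained without Ento+AZD replicate 2 (0.0496). Against AZD, CXCR4 was lost without Ento+AZD replicate 1 or 2 or AZD replicate 2 or 3 (edgeR adjusted p 0.0514 to 0.0796). S1PR1 was lost there without AZD replicate 1, 2 or 3 or Ento+AZD replicate 1 (edgeR adjusted p 0.0558 to 0.159). The GNA13 difference between Ento and AZD was lost without any 1 of the 3 Ento libraries, AZD replicate 2 or 3 or Ento+AZD replicate 1 or 3 (edgeR adjusted p 0.0535 to 0.225). Without the replicate term, 0 members were called between Ento+AZD and either single agent, where S1PR4 had edgeR adjusted p of 0.0519 against Ento and 0.0844 against AZD. Between the single agents 4 were still called, S1PR4, S1PR1, S1PR2 and CXCR5.

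**Figure D4:**
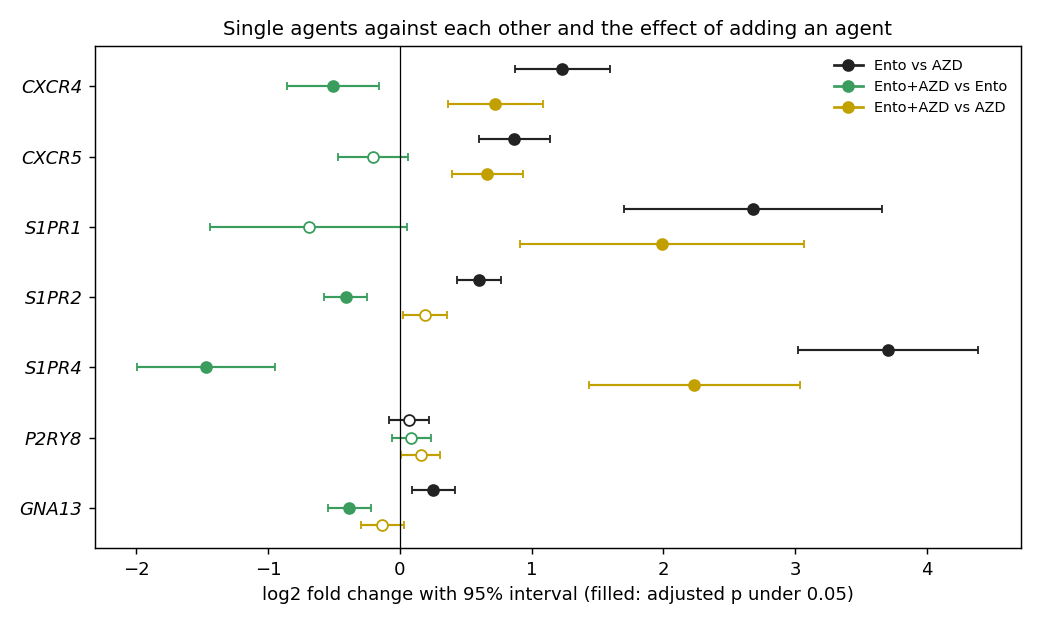
Log2 fold change with 95% interval of the 7 tested members between Ento and AZD, Ento+AZD and Ento, and Ento+AZD and AZD. Filled symbols have an edgeR adjusted p under 0.05. S1PR4 showed the widest differences (3.71, -1.47 and 2.24), and P2RY8 had no filled symbol.

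If each agent acted on the log2 scale as it did alone, the combination would equal the sum of the single changes. For S1PR4 that sum was -0.38 and the measured value 0.19, for S1PR1 0.44 and 0.87, for CXCR4 -0.22 and -0.00 and for CXCR5 -0.26 and 0.10. The 4 receptors thus ended above the sum, S1PR2 below it (0.12 and -0.05), and P2RY8 at it (0.22 and 0.23). None of these departures passed the interaction test. Over all genes edgeR called 0 interactions, with 1652 at an unadjusted p under 0.05, limma voom called 0 and DESeq2 7, none of them a member. GNA13 had the smallest unadjusted p of the members (0.0288, edgeR adjusted p = 0.475), with a sum of 0.01 and a measured -0.25.

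The rest of the pathway was examined through lists of its parts. Over all tested genes 8.32% were called with Ento, 22.2% with AZD and 40% with Ento+AZD. Single genes of these lists were tested in the full fit only, not without the replicate term or with 1 library left out. The ligand genes CXCL12, CCL19 and CCL21 had 0 counts in all 12 libraries, and CXCL13 had 1 count in 1 DMSO and 1 Ento+AZD library, so transcripts of these chemokines were at or near 0 in this line at this depth. Chemokine protein was not measured. Of 12 further positioning receptors, 6 were tested, of which 1 was higher and 1 lower with Ento, 0 and 3 with AZD, and 1 and 3 with Ento+AZD. The list's median log2 change was 0.33, -0.30 and -0.23, against 0.01 for all tested genes in each comparison. The gene that was higher was GPR183, the oxysterol receptor that draws B cells to the outer follicle, with 0.755, 0.779 and 0.196 CPM with DMSO, 3.28, 3.63 and 2.90 with Ento, 0.632, 0.641 and 0.387 with AZD and 5.63, 1.67 and 0.846 with Ento+AZD. Ento raised it by 2.60 ± 0.43 on the log2 scale (edgeR adjusted p = 0.00278) and Ento+AZD by 2.16 ± 0.45 (edgeR adjusted p = 0.00172), and all libraries of both groups lay above DMSO. With AZD alone its log2 difference was -0.04 and did not pass (edgeR adjusted p = 0.972). P2RY10, a receptor for lysophosphatidylserine, fell with AZD (log2 -1.48, edgeR adjusted p = 0.0221) and Ento+AZD (log2 -1.08, edgeR adjusted p = 0.0457).

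Downstream of the receptors, of 15 tested genes for G proteins, guanine exchange factors and their effectors, 0 were called with Ento, 2 higher and 1 lower with AZD, and 2 higher and 4 lower with Ento+AZD, with list medians of -0.05, -0.05 and 0.00 on the log2 scale. Shares called over all tested genes were 8.32%, 22.2% and 40%, so these counts were not above them. ARHGEF1, the guanine exchange factor that GNA13 activates, was 1.15-fold higher with Ento+AZD (log2 0.21 ± 0.07, edgeR adjusted p = 0.0250), with 0.15 and 0.00 for the single agents, which did not pass. ARHGEF11, a related exchange factor with at most 17 counts per library, fell by 1.09 on the log2 scale with Ento+AZD (edgeR adjusted p = 0.0268). It was over the filter in 3 DMSO, 2 Ento, 0 AZD and 0 Ento+AZD libraries and would not have been tested without those of DMSO. Its difference from DMSO is thus not independent of that filter.

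Among 14 tested genes that end receptor signals, 1 was higher and 2 lower with Ento, 0 and 4 with AZD and 2 and 3 with Ento+AZD (medians 0.02, -0.16 and -0.08). The shares called over all tested genes were 8.32%, 22.2% and 40%. CD69, the surface protein that binds S1PR1 and removes it from the membrane, had 1.11, 0.366 and 0.472 CPM with DMSO, 4.75, 4.04 and 2.41 with Ento, 1.60, 0.695 and 0.387 with AZD and 7.19, 1.38 and 1.35 with Ento+AZD. Ento raised CD69 by 2.61 ± 0.37 (edgeR adjusted p = 8.29e-04) and Ento+AZD by 2.20 ± 0.38 (edgeR adjusted p = 4.38e-04) on the log2 scale. The 4 libraries with the highest CD69 level were also the 4 with the highest S1PR1 level (13 to 22 counts). They were the 3 Ento libraries and Ento+AZD replicate 1, and GPR183 was highest in the same 4 (2.90 to 5.63 CPM). Both CD69 and S1PR1 were called higher with Ento, so the match is no separate result. A link between the 2 genes was not tested. RGS13, a regulator of chemokine signals in germinal-centre B cells, had means of 319 to 330 CPM with log2 differences of 0.03, 0.05 and -0.00 that did not pass. RGS1, which damps CXCR4 signals, had no call (edgeR adjusted p 0.863, 0.978 and 0.623), while RGS16 fell by 1.00 with Ento+AZD (edgeR adjusted p = 4.11e-04).

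Enzymes and transporters of sphingosine-1-phosphate and of the P2RY8 ligand numbered 12 tested genes, of which 1 was higher and 0 lower with Ento, 1 and 1 with AZD and 3 and 2 with Ento+AZD (medians -0.00, -0.08 and 0.06). All tested genes were called at shares of 8.32%, 22.2% and 40%. SGPP2, a phosphatase that removes sphingosine-1-phosphate, rose with Ento (log2 1.07, edgeR adjusted p = 0.0157) and Ento+AZD (log2 1.14, edgeR adjusted p = 0.00212). SPNS2, which exports it, rose with Ento+AZD (log2 1.2, edgeR adjusted p = 0.0103), and PLPP3, a lipid phosphate phosphatase, fell (log2 -1.18, edgeR adjusted p = 0.0136). ABCC1, which exports the glutathione conjugate that P2RY8 senses, was higher by 0.47 with Ento+AZD (edgeR adjusted p = 2.77e-04). GGT1, of the transferase family that degrades such conjugates, was lower by 0.82 (edgeR adjusted p = 0.00321).

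FOXO1, which with KLF2 directs transcription of homing genes and marks the dark zone, was abundant where KLF2 was not. It had means of 159, 197, 186 and 215 CPM in DMSO, Ento, AZD and Ento+AZD. All 3 exposures raised it, by 0.30 ± 0.07 (edgeR adjusted p = 0.0222), 0.22 ± 0.07 (0.0475, at the edge of the threshold) and 0.43 ± 0.07 (4.33e-04) on the log2 scale. The Ento (165 to 229 CPM) and AZD libraries (168 to 218 CPM) overlapped DMSO (150 to 171 CPM), and Ento+AZD (198 to 249 CPM) did not. Of the 8 tested genes of the KLF family and FOXO list, 1 was higher and 1 lower with Ento, 1 and 3 with AZD and 1 and 2 with Ento+AZD (medians -0.06, 0.08 and -0.07). Here too the shares over all tested genes were 8.32%, 22.2% and 40%. KLF9 was lower with each exposure (log2 -0.55, -0.49 and -0.68, edgeR adjusted p 0.0409, 0.0346 and 0.00340).

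**Figure D5:**
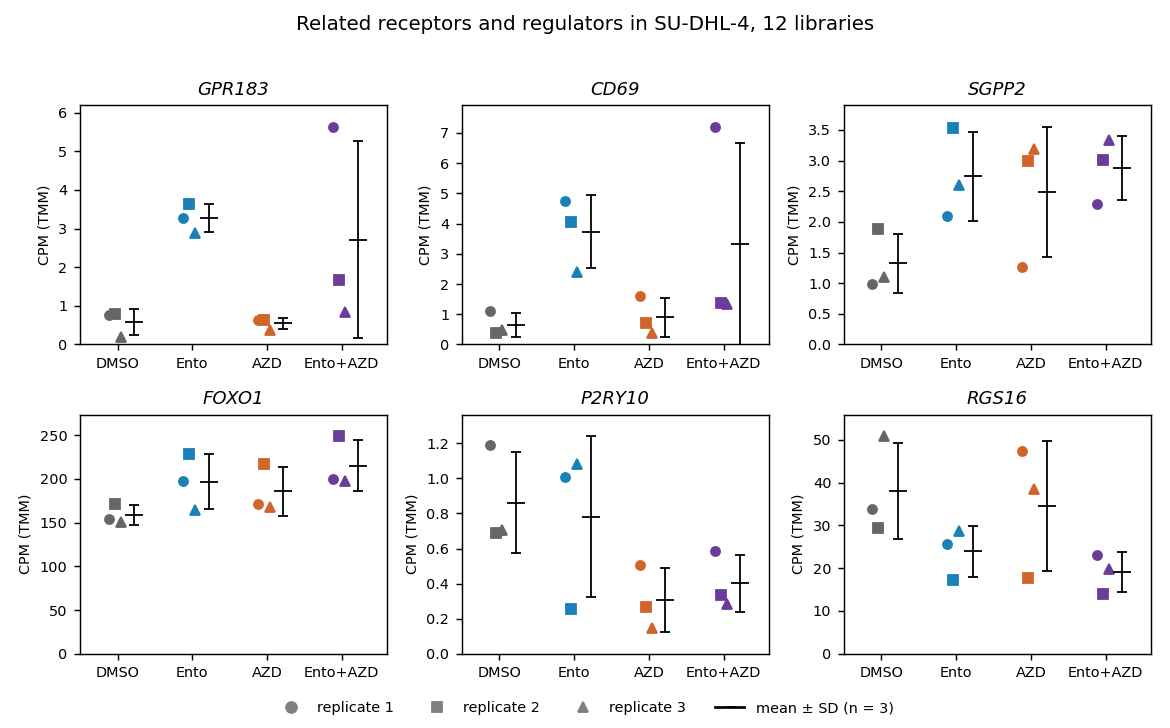
TMM-scaled CPM (linear axis from 0) of GPR183, CD69, SGPP2, FOXO1, P2RY10 and RGS16 in the 12 libraries, drawn as 1 symbol per library and replicate number with the mean ± SD of 3 libraries. GPR183 and CD69 were above DMSO in all Ento and Ento+AZD libraries, with Ento+AZD replicate 1 highest (5.63 and 7.19 CPM), and SGPP2 overlapped DMSO in 1 AZD library. The lower SD bar of CD69 in Ento+AZD runs below 0 and is not shown beyond the axis.

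For the 3 members with the widest span, the genes with the most similar changes were sought among the 14081 tested genes outside these lists with a mean of at least 1 CPM, as the smallest root mean square difference of the 3 log2 changes from DMSO. For S1PR4 these were FCMR (0.39), RASSF6 (0.42) and CELSR1 (0.46), of which FCMR, the receptor for the Fc part of IgM, had changes of 1.30, -1.62 and 0.58 with Ento, AZD and Ento+AZD. For S1PR1 they were HRK (0.07), LINC02422 (0.16) and PSD3 (0.18), where HRK, a BH3-only gene of the apoptosis pathway, had 1.45, -1.09 and 0.91. For CXCR4 they were SLA (0.06), PTGER4 (0.07) and POU4F1 (0.07). The measure rests on 3 values that share the DMSO libraries and ranks likeness only.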

How the data were processed

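RNA of SU-DHL-4 was measured in 4 groups of 3 libraries (depth 18121993 to 24675830 counts), named by the labels N1 to N3 and described as biological replicates. P-values rest on the spread between these samples that is left after group and replicate number are fitted. Libraries of poly(A) RNA were sequenced from 1 end by the authors, and after trimming and alignment to GRCh38.p13 the reads of each gene symbol were counted. Per the labels, the submitters' processing notes also list hg19, bcl2fastq 2.19, Trim Galore, cutadapt and edgeR. The deposited counts are whole reads without normalization. Strand use and the handling of reads that match several genes are not given in the sources used here. A second deposited table of log2 values was not used.

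The counts were filtered with filterByExpr by group (minimum count 10, minimum total 15), scaled by TMM and fitted with edgeR 4.0.16 (R 4.3.3) in 1 quasi-likelihood model of all 12 libraries, with group and replicate number as terms as in the study's methods, and Benjamini-Hochberg adjustment over 16835 genes. Adjusted p always means this test unless another is named, and a call is an adjusted p under 0.05. Standard errors are the log2 fold change divided by the root of F. Same-numbered libraries deviated together in all 18 pairs (correlation 0.213 to 0.703), against -0.627 to 0.325 in 36 differently numbered pairs, so the numbers were taken to pair the samples. Pairs of libraries within a group differed by more than counting noise (chi-square per degree of freedom 8.64 to 52.0). Alternatives were no replicate term, RLE, upper-quartile and library-size scaling, no filter, a stricter filter (1 CPM in 3 libraries), DESeq2 1.42.0, limma 3.58.1 (voom), the compared groups alone and each library left out. The scripts were tested on simulated data.

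All 9 members are reported. From each list of related genes, those over 2-fold and called against DMSO (at most 4) and a fixed few (the ligands, FOXO1, GPR183, ARHGEF1, RGS13, RGS1, CD69) are named, and 1 further gene and its list are not reported here. ABCC1, GGT1, KLF9 and BCL9L were named after their values were seen. The members and lists were chosen with earlier results of these data known. Exon lengths, coordinates and overlaps come from GENCODE v44 (GRCh38), and promoter windows from RefSeq (GRCh38.p14).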

Additional observations from a re-analysis of the deposited data

How the results depend on the processing

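Of the settings tried, leaving out the replicate term changed the most counts of members called. Without it the number of members called was 0 for Ento against DMSO, 1 for AZD, 0 for Ento+AZD, 0 for Ento+AZD against Ento and 0 against AZD, and 4 for Ento against AZD (with the block 3, 4, 2, 4, 4 and 6), while over all genes the calls were 36, 326, 2398, 206, 17 and 539 (with the block 1401, 3745, 6736, 3440, 2001 and 2478). The block changed no other call of a member than those given beside the results. With no filter Ento against DMSO had 6 called members, among them KLF2 (2.41, edgeR adjusted p = 0.0112), which was also called in Ento+AZD against Ento (-2.86, 0.00250) and Ento against AZD (3.18, 0.00146) and rests on Ento replicate 2 alone, and CCR7 was then called with AZD (-2.31, edgeR adjusted p = 0.00918). With only the groups compared, Ento+AZD against DMSO had 0 (P2RY8 0.0964 and GNA13 0.0762, edgeR adjusted p) and S1PR2 with AZD was not called (0.104), nor was CXCR4 between Ento+AZD and Ento with upper-quartile scaling (0.0566). With no filter CXCR4 (1.51e-05) and CXCR5 (0.0173) were called with Ento. Leaving out 1 library gave 1 to 4 members for Ento (1 without Ento replicate 1 or 2), 1 to 4 for AZD (1 without AZD replicate 3, 2 without AZD replicate 2), 0 to 2 for Ento+AZD (0 without DMSO replicate 2 or Ento+AZD replicate 3, 1 without DMSO replicate 3 or Ento+AZD replicate 1), 3 to 5 for Ento+AZD against Ento, 2 to 4 against AZD (2 without Ento+AZD replicate 1 or AZD replicate 2 or 3), 5 to 6 for Ento against AZD, and 0 for the interaction. Values near 0 changed sign: CXCR4 in Ento+AZD against DMSO was 0.030 without the block, 0.024 with upper-quartile scaling, 0.0041 with the stricter filter and 0.0099 with voom, and ranged from -0.20 to 0.11 with 1 library left out. The same range was -0.061 to 0.20 for CXCR5, -0.12 to 0.025 for S1PR2 and -0.069 to 0.40 for S1PR4, and for the interaction -0.074 to 0.67 for S1PR1 and -0.037 to 0.060 for P2RY8. Scaling moved the median of all genes by at most 0.06. The stricter filter removed S1PR1, and DESeq2 gave it no adjusted p in some comparisons. CCR7, KLF2, S1PR1 and, with AZD, S1PR4 are limited by counts of a few reads.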
